A study of Mus musculus with 8 samples.

Results

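The pluripotency-associated genes followed here in mouse morulae treated with A485 were Dppa2, Dppa3, Dppa4, Dppa5a, Utf1, L1td1, Fbxo15, Alpl, Morc1 and Lin28a, chosen by symbol, and 10 of 10 were found among 18257 genes of the deposited table. A485 inhibits the acetyltransferase activity of p300 and CBP, which acetylate histones at enhancers and promoters. Wild-type mouse embryos were cultured in KSOM medium from the 4-cell stage, 4 control libraries with 0.1% DMSO and 4 treated libraries with 2 µM A485. The treatment is described as lasting to the blastocyst stage, while the collected samples are labelled morula. Each library pooled 3 embryos freed of the zona pellucida, whose polyadenylated RNA was amplified before sequencing. The labels call each pool a biological replicate and give neither strain nor embryo age, and they do not say whether pools came from separate litters or cultures, so p-values measure the spread between these pools.

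Pluripotent cells are maintained by a circuit of transcription factors around Pou5f1, Nanog and Sox2, and the genes described here lie mostly outside that circuit and mark cells in which it is active. Dppa3 (Stella) shields DNA methylation patterns of the early embryo. Dppa2 and Dppa4 are paired SAP-domain chromatin proteins, and Morc1 is a silencer of transposable elements in the male germ line. Dppa5a, Lin28a and L1td1 encode RNA-binding proteins. Utf1 encodes a chromatin-bound protein of pluripotent cells, Fbxo15 an F-box protein, and Alpl the tissue-nonspecific alkaline phosphatase whose activity is a classical stain for pluripotent colonies.

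Total estimated counts lay between 23641781 and 25677701 per library. Marker genes were looked up for cell content, with means over the 8 libraries of both groups together. The markers do not test the morula label against the blastocyst stage. Of 9 morula markers, 9 had a mean of at least 1 TPM (a level per transcript length, scaled to the same sum in each library). This was so for 2 of 9 oocyte markers, 1 of 8 cumulus and granulosa markers, 0 of 5 fibroblast and 0 of 4 sperm markers. Of 6 blood markers 2 reached that level, Hba-a1 and Cd52. The summed blood markers were 30.3 to 52.8 TPM in control and 347 to 1192 TPM in A485 libraries, of which Hba-a1 gave 20.5 to 44.2 and 343 to 1187 TPM, while Hbb-bs was at most 0.17 TPM and Ptprc at most 0.05 TPM in any library. The part of these signals in the results below was not tested. Among the morula markers, Cdx2 had 19.8 to 29.8 TPM in control and 0.23 to 1.65 TPM in A485 libraries. Krt8 went the other way, with 172 to 245 TPM in control and 409 to 1206 TPM in A485 libraries. A485 libraries differed more among themselves than control libraries did, and for Dppa2, Dppa3, Dppa4, Fbxo15 and Lin28a A485 replicates 3 and 4 both lay below replicates 1 and 2, so values without either pair are given. All changes are relative to the other genes, and in pools of whole embryos fewer expressing cells and less RNA per cell cannot be told apart.

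In control morulae the 10 genes spanned more than 4 orders of magnitude per transcript length. Dppa3, at 10807 ± 511 TPM (SD, n = 4), ranked 2 among all 18257 genes. Dppa5a, at 6604 ± 343 TPM, ranked 14. Fbxo15 stood at 1117 ± 168 TPM. Dppa2 and Dppa4 followed at 524 ± 35.1 and 522.5 ± 7.99 TPM, and their ranges overlapped, so their order is not resolved. Utf1 had 205 ± 31.4 TPM, Alpl 18.3 ± 2.69 TPM, L1td1 4.88 ± 0.621 TPM and Lin28a 3.02 ± 0.505 TPM. Morc1, at 0.25 ± 0.127 TPM, was barely detected. Every other pair of neighbours in this order had ranges that did not overlap.

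The order changed in A485 embryos. Dppa5a, at 4978 ± 505 TPM (SD, n = 4), stood above Dppa3, at 3585 ± 2301 TPM, although their ranges overlapped. Alpl, at 1.47 ± 0.380 TPM, had dropped below L1td1, at 9.25 ± 2.30 TPM, with no overlap. The ranges also overlapped between Fbxo15 and Dppa4, between Dppa4 and Dppa2, and between Alpl and Lin28a. Together the 10 genes made up 1.91%, 2.12%, 1.99% and 1.91% of all TPM in control replicates 1 to 4. In A485 replicates 1 to 4 their share was 1.36%, 1.10%, 0.703% and 0.866%. Dppa3 and Dppa5a supplied 83.3% to 88.4% of that sum in every library. The ratio of Dppa3 to Dppa5a TPM was 1.60 to 1.70 in control libraries. In A485 replicates 1 to 4 it was 1.28, 0.971, 0.336 and 0.329.

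**Figure D1:**
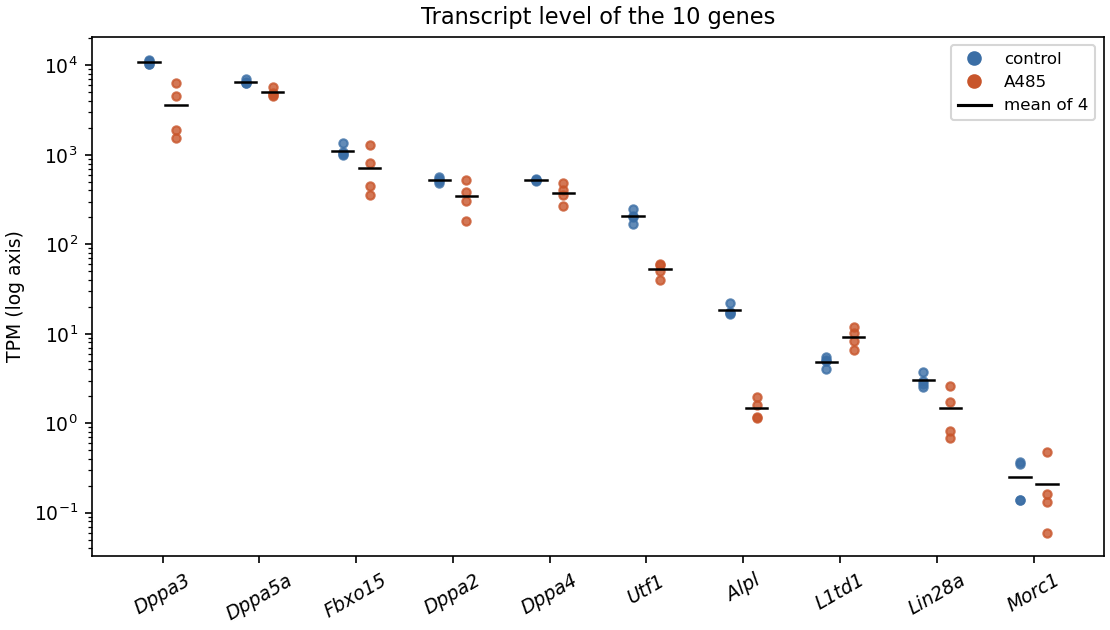
Level of each gene in TPM (log axis) in the 4 control and 4 A485 libraries; points are libraries and black lines are means of 4. Dppa3 and Dppa5a stand highest in both groups, and Alpl drops from 18.3 to 1.47 TPM.

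Most of the set was lower after A485. Of the 10 genes, all of which passed the filter on low counts, 7 fell (Alpl, Utf1, Dppa3, Lin28a, Dppa2, Dppa4 and Dppa5a), 1 rose (L1td1), and Fbxo15 and Morc1 did not pass an adjusted p of 0.05 in edgeR's quasi-likelihood test. Over all 12936 genes tested, 25.0% fell and 29.7% rose. The libraries of both groups did not overlap, with A485 lower, for the same 7 genes, against 24.6% of genes tested. They did not overlap, with A485 higher, for L1td1, against 26.9%. The median log2 fold change was -0.87 over the 10 genes and 0.09 over all genes tested. Because the genes were picked with earlier results known, these counts describe the set only. Scaling by total counts alone moved the median of all genes to 0.37, with 4930 genes higher and 2300 lower against 3839 and 3238, and 6 of the 10 then fell and 1 rose.

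**Figure D2:**
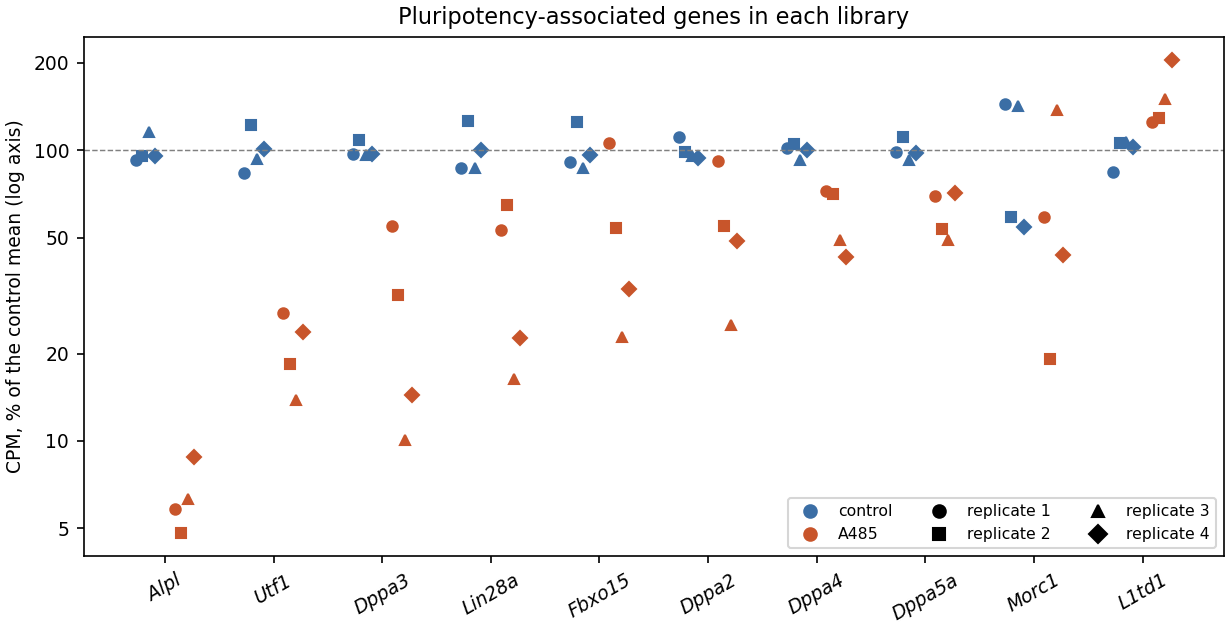
CPM in each library as a percentage of the control mean of that gene (log axis); colours give the group and symbols the replicate number. Alpl lies at 4.84% to 8.84% in the A485 libraries, while A485 replicate 1 stays among the controls for Fbxo15.

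**Figure D3:**
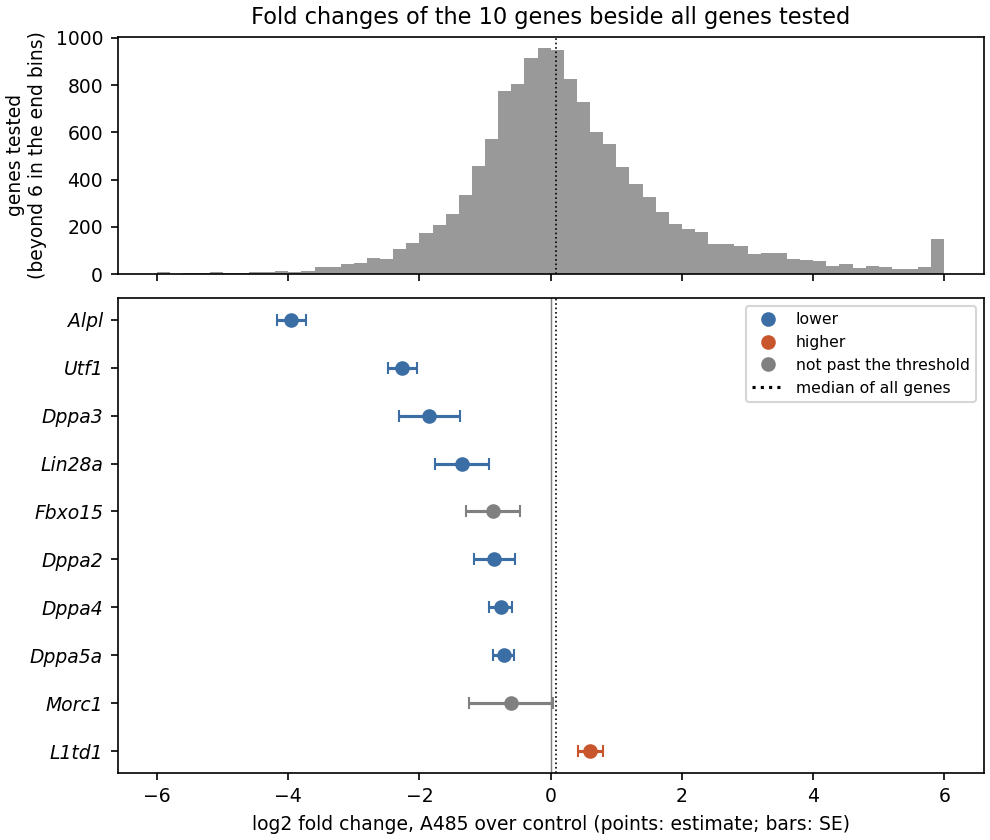
Lower panel, log2 fold change of A485 over control with its standard error for each of the 10 genes, coloured by call. Upper panel, the same quantity for all 12936 genes tested, whose median of 0.09 is the dotted line and whose values beyond 6 in either direction are counted in the end bins; Alpl has the largest fall of the 10 at -3.95, and L1td1 alone lies above 0.

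Dppa3 was the most abundant of the set in control morulae, and its protein keeps maternal chromatin from losing methylation in the zygote and limits UHRF1 and DNMT1 in oocytes. It had 7025, 7815, 6980 and 7026 CPM (counts scaled to library size, with TMM factors) in control replicates 1 to 4. In A485 replicates 1 to 4 it had 3951, 2293, 728 and 1039 CPM. Every treated library lay below every control, and replicates 3 and 4 held 10.1% and 14.4% of the control mean against 54.8% and 31.8% in replicates 1 and 2. The log2 fold change was -1.85 ± 0.46 (SE; adjusted p = 0.0075, edgeR). Without A485 replicates 1 and 2 it was -3.05, and without replicates 3 and 4 it was -1.21, past the threshold in both. The coefficient of variation of Dppa3 was 5.59% in control and 73.1% in A485 libraries. A processed pseudogene, Dppa3-ps, is annotated on chromosome X and was not analysed here.

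Dppa3 lies on chromosome 6 at 122626424 to 122630271 (GRCm38.p6, plus strand), in a cluster with other pluripotency genes. Gdf3, a TGF-beta family ligand that ends 16337 bases before it, fell with a log2 fold change of -4.54 ± 0.21 (SE; adjusted p = 5.6e-06, edgeR). Nanog, which starts 77218 bases after it, fell with a log2 fold change of -3.19 ± 0.43 (SE; adjusted p = 0.00028, edgeR). The cluster did not move as one block. Slc2a3, the gene of the glucose transporter GLUT3, starts 97538 bases after Dppa3 and rose from 160 ± 15.3 to 564 ± 80.5 CPM (SD, 4 libraries each; edgeR adjusted p = 1.5e-05). Foxj2, 189913 bases away, rose from 0.729 ± 0.160 to 3.18 ± 0.205 CPM (SD, 4 libraries each; edgeR adjusted p = 0.00033).

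**Figure D4:**
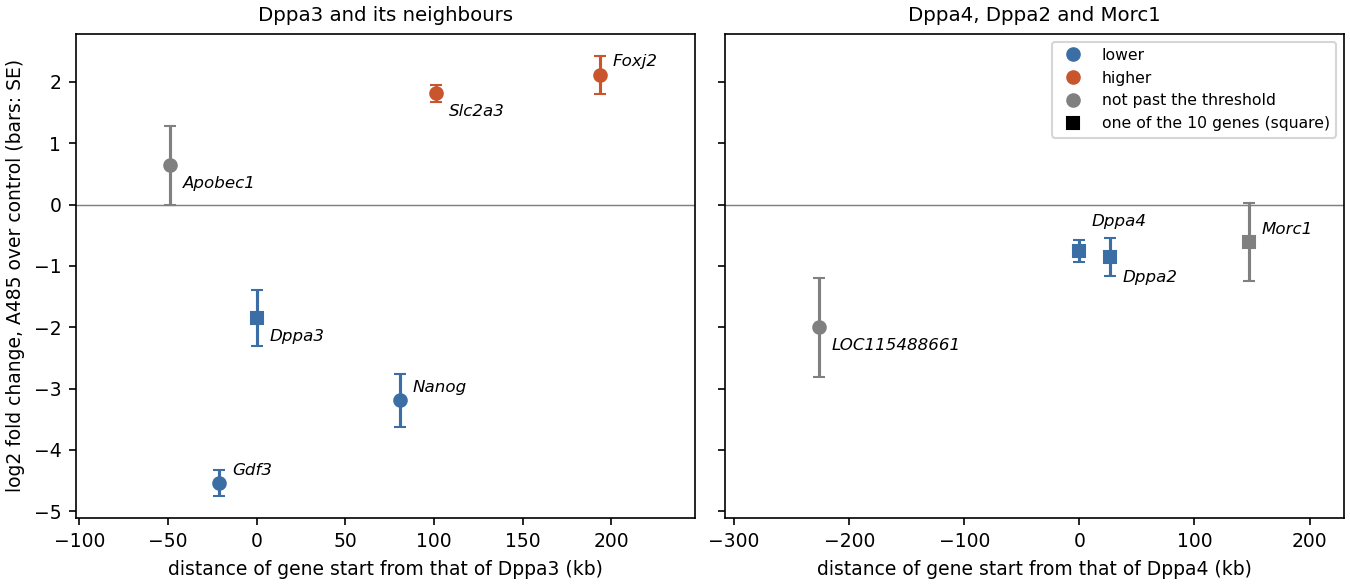
Log2 fold change of A485 over control (bars, SE) against the distance of each gene's start from that of Dppa3 (left) or Dppa4 (right), for tested genes; squares are among the 10 genes. Gdf3 at -4.54 and Nanog at -3.19 flank Dppa3, while Slc2a3 and Foxj2 lie above 0.

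Dppa4, Dppa2 and Morc1 are consecutive genes of the table on chromosome 16. Dppa4 occupies 48283735 to 48294292 and Dppa2 48310274 to 48319513 (GRCm38.p6, both on the plus strand), 15982 bases apart, and Morc1 starts at 48431237. The DPPA2 and DPPA4 proteins work as a pair that binds promoters carrying both active and repressive histone marks, and they are needed in embryonic stem cells for expression of Dux and Zscan4.

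Dppa4 had 684, 708, 625 and 676 CPM in control replicates 1 to 4 and 488, 478, 332 and 290 CPM in A485 replicates 1 to 4. The groups did not overlap, and the log2 fold change was -0.76 ± 0.18 (SE; adjusted p = 0.0046, edgeR). Without A485 replicates 3 and 4 it was -0.48 (edgeR adjusted p = 0.011), and without replicates 1 and 2 it was -1.13 (edgeR adjusted p = 5.8e-05).

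Dppa2 had 1088, 966, 940 and 924 CPM in control and 901, 536, 246 and 478 CPM in A485 replicates 1 to 4. A485 replicate 1 thus lay just under the lowest control, at 92.0% of the control mean, and replicate 3 at 25.1%. In TPM, which uses no TMM factor, replicate 1 at 518 lay within the control range of 489 to 569. The log2 fold change was -0.86 ± 0.31 (SE; adjusted p = 0.038, edgeR). This call was lost in 11 of 19 alternative analyses, among them the omission of any 1 control library or of A485 replicate 2 or 4 (edgeR adjusted p of 0.061 to 0.089). With all libraries kept, it was lost under total-count scaling (log2 fold change of -0.61, edgeR adjusted p = 0.072). Upper-quartile factors, a filter at 5 CPM and no filter also ended it (edgeR adjusted p of 0.052 to 0.055). The log2 fold change without A485 replicates 3 and 4 was -0.45 (edgeR adjusted p = 0.084). Without A485 replicates 1 and 2 it was -1.45 (edgeR adjusted p = 0.00082).

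The ratio of Dppa2 to Dppa4 TPM was 1.09, 0.945, 1.03 and 0.940 in control replicates 1 to 4. In A485 replicates 1 to 4 it was 1.28, 0.788, 0.510 and 1.15. The control ratios lay near 1, and the A485 ratios lay on both sides of it over a wider range.

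Morc1, the neighbour of Dppa2, had 25, 10, 26 and 9 counts in control and 11, 4, 31 and 9 counts in A485 replicates 1 to 4. At these counts the groups overlapped and no change was detectable, with a log2 fold change of -0.61 ± 0.64 (SE; adjusted p = 0.44, edgeR). A noncoding gene, Gm41458, overlaps it, and the sources do not state whether counting used strand. Dppa1 carries the family name but lies on chromosome 11 and is not among the 10 genes. It had 94.5, 82.2, 115 and 162 CPM in control and 32.4, 56.6, 78.4 and 272 CPM in A485 replicates 1 to 4, overlapping groups that did not pass (log2 fold change of -0.04 ± 0.60, SE; adjusted p = 0.96, edgeR).

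Among the RNA-binding proteins, Dppa5a encodes a small KH-domain protein of early embryos and germ cells. It had 3112, 3509, 2928 and 3084 CPM in control and 2204, 1690, 1548 and 2257 CPM in A485 replicates 1 to 4. The groups did not overlap, and Dppa5a had the smallest relative spread of the 10 in A485 libraries, with a coefficient of variation of 18.6%. The log2 fold change was -0.71 ± 0.16 (SE; adjusted p = 0.0034, edgeR), and under total-count scaling it was -0.44, still past the threshold. Dppa5a lies on chromosome 9 at 78367052 to 78368199 (GRCm38.p6, minus strand). Its estimated counts are not whole numbers, unlike those of the other 9 genes, so reads may have been divided and its level is uncertain. The pseudogenes Dppa5b and Dppa5c are annotated on the same chromosome but are not among the genes of the deposited table. Which genes shared such reads was not tested.

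Lin28a encodes the protein that blocks maturation of let-7 microRNAs and marks undifferentiated cells. It was already low in control morulae, with 9.25, 13.4, 9.25 and 10.7 CPM in replicates 1 to 4. In A485 replicates 1 to 4 it had 5.66, 6.91, 1.74 and 2.40 CPM. The groups did not overlap in CPM, while in TPM A485 replicate 2, at 2.62, lay above the lowest control, at 2.57. The log2 fold change was -1.35 ± 0.41 (SE; adjusted p = 0.017, edgeR). Without A485 replicates 1 and 2 it was -2.38, and without replicates 3 and 4 it was -0.76. The call was lost without control replicate 2 (log2 fold change of -1.18, edgeR adjusted p = 0.058). The deposited table places Lin28a on chromosome 4 at 134003330 to 134019869 on the plus strand, while RefSeq (GRCm38.p6) has it on the minus strand ending at 134019196.

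L1td1, derived from the first open reading frame of a LINE-1 element, encodes a partner of LIN28A and was the single gene of the set that rose. It had 12.1, 15.2, 15.3 and 14.8 CPM in control and 17.9, 18.5, 21.5 and 29.2 CPM in A485 replicates 1 to 4. All treated libraries lay above all controls, and A485 replicate 4 was the highest at 204% of the control mean. Its log2 fold change was 0.61 ± 0.19 (SE; adjusted p = 0.021, edgeR). Leaving out control replicate 1, control replicate 4 or A485 replicate 4 ended the call (log2 fold changes of 0.43 to 0.60, edgeR adjusted p of 0.0502 to 0.0720), as did leaving out A485 replicates 3 and 4 (0.35, edgeR adjusted p = 0.13), so that none of the 10 genes rose in those analyses. L1td1 lies on chromosome 4 at 98726754 to 98738486 (GRCm38.p6, plus strand). Patj, a polarity gene that ends 7151 bases before it, rose from 4.50 ± 0.617 to 15.8 ± 4.18 CPM (SD, 4 libraries each; edgeR adjusted p = 0.00015).

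Utf1 is a direct target of OCT4 and SOX2 in embryonic stem cells and tunes expression of genes with bivalent promoters. It had 178, 260, 198 and 214 CPM in control and 58.4, 39.1, 29.5 and 50.6 CPM in A485 replicates 1 to 4. Treated libraries held 13.9% to 27.5% of the control mean, far below every control. This gave a log2 fold change of -2.26 ± 0.22 (SE; adjusted p = 3.8e-05, edgeR), with a range of -2.43 to -1.99 over 19 alternative analyses. Utf1 occupies 139943856 to 139945112 on chromosome 7 (GRCm38.p6, plus strand). Kndc1, which ends 2316 bases before it, went from 1.45 ± 0.427 to 3.96 ± 1.94 CPM (SD, 4 libraries each; edgeR adjusted p = 0.020), a rise that was not past the threshold in 5 of 18 alternatives.

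Alpl had the largest fall of the set. It had 39.9, 41.3, 49.8 and 41.3 CPM in control and 2.50, 2.09, 2.72 and 3.81 CPM in A485 replicates 1 to 4. The treated libraries held 4.84% to 8.84% of the control mean, with replicates 3 and 4 the higher pair here. Its log2 fold change was -3.95 ± 0.22 (SE; adjusted p = 5.6e-06, edgeR), a 15.5-fold fall, and ranged from -4.23 to -3.67 over 19 alternatives. Alpl lies on chromosome 4 at 137741731 to 137796384 (GRCm38.p6, minus strand). Its nearest neighbours Rap1gap and Ece1, both under 2 CPM, did not pass.

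Fbxo15, an F-box gene used as a reporter in the first reprogramming screens, had 1632, 2230, 1551 and 1723 CPM in control replicates 1 to 4. In A485 replicates 1 to 4 it had 1898, 964, 408 and 597 CPM. Replicate 1 lay inside the control range and the other three A485 libraries below it. This gave a log2 fold change of -0.88 ± 0.41 (SE; adjusted p = 0.095, edgeR). It passed without A485 replicate 1 (log2 fold change of -1.45, edgeR adjusted p = 0.0018), under DESeq2 with an adjusted p of 0.041, under limma-voom with one of 0.032, and with the replicate number as a block (edgeR adjusted p = 0.027), and without A485 replicates 3 and 4 it was -0.32 (edgeR adjusted p = 0.34). Without A485 replicates 1 and 2 it was -1.85 (edgeR adjusted p = 6.5e-05). Fbxo15 lies on chromosome 18 at 84934552 to 84981476 (GRCm38.p6, plus strand). Timm21 lies inside it on the opposite strand and rose from 2.69 ± 0.920 to 8.44 ± 5.02 CPM (SD, 4 libraries each; edgeR adjusted p = 0.0069), and without knowledge of strand reads from their overlap cannot be told apart.

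The spread among treated libraries was uneven across the set. Dppa2, Dppa3 and Fbxo15 shared 1 order of A485 libraries, from highest to lowest replicate 1, 2, 4 and 3. Their highest A485 library exceeded the lowest 3.67-fold, 5.43-fold and 4.65-fold, against 1.18-fold, 1.12-fold and 1.44-fold among controls. Alpl and Utf1 differed 1.83-fold and 1.98-fold among A485 libraries. The coefficient of variation in A485 was 50.2% for Dppa2, 59.9% for Lin28a, 68.5% for Fbxo15 and 73.1% for Dppa3, where the median of genes with an average log2 CPM of at least 3 was 21.7%. In control libraries that median was 11.8%.

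Promoter sequences of RefSeq (GRCm38.p6), from 250 bases before to 50 bases after a transcript start, were at hand for 4 of the 10 genes, with 2 windows for Alpl. The upstream Alpl window and the windows of the other genes are printed 5′ to 3′ on the gene's strand because they contrast Alpl and Utf1, the largest falls, and Lin28a, another fall, with L1td1, the rise. Capitals mark matches to any motif searched. On both strands these were the octamer ATGCAAAT, the Sox motifs ACAATG and ACAAAG, the Esrrb site AAGGTCA, the GC box GGGCGG, the cAMP response element TGACGTCA, the E-box CACGTG and the TATA box TATAAA, and adjoining GC boxes can share bases.
Alpl, chr4:137796335-137796634, minus strand: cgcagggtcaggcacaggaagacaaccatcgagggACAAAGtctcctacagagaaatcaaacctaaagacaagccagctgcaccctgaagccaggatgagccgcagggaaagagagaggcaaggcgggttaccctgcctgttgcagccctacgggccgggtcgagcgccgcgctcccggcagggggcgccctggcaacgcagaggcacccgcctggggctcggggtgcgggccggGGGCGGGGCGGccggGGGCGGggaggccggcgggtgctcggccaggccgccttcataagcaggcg
Utf1, chr7:139943606-139943905, plus strand: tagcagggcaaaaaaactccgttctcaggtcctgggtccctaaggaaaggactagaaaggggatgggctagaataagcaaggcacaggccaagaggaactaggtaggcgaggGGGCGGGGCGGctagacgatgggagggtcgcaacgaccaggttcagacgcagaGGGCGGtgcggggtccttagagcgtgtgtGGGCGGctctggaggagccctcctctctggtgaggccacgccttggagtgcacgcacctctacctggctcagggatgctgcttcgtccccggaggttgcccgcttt
Lin28a, chr4:134018767-134019066, minus strand: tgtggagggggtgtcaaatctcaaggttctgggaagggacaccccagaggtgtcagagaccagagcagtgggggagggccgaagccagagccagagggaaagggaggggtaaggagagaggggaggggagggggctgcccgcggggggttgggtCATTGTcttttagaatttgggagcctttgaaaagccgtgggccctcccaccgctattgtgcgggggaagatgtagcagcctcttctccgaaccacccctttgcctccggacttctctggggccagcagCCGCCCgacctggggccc
L1td1, chr4:98726504-98726803, plus strand: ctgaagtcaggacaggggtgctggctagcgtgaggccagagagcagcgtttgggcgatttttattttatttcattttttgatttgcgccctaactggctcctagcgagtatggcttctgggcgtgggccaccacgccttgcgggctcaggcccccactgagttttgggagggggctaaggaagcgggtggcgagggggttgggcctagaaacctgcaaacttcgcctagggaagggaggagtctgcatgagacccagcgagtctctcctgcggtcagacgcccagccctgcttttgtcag

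The Utf1 window held 4 GC boxes and the upstream Alpl window 3, beside 35.7% of 32851 promoter windows with at least 1. In Alpl the matches begin 15 and 10 bases before the start and at the start itself, and in Utf1 they begin 138, 133, 85 and 56 bases before it. A Sox match was found once each in the upstream Alpl window and the Lin28a window, a motif present in 28.6% of all windows. The Lin28a window also held 1 GC box, which begins 32 bases after the start. That window, up to 134019066, lies inside the RefSeq gene, which ends at 134019196, so its start is not the outermost one. The L1td1 window held no match to any of the motifs. The octamer, found in 1.74% of all windows, and the Esrrb site, found in 4.72%, had no match in these 4 printed windows, nor had the cAMP response element (1.79% of all windows), the E-box (7.15%) or the TATA box (13.6%). GC content was 70.0% for the upstream Alpl window, 62.0% for Utf1, 63.3% for Lin28a and 58.7% for L1td1, against a median of 52.7%. CpG dinucleotides numbered 26, 17, 10 and 14 in the same order, against a median of 7. The second Alpl window, at chr4:137766426-137766725 and not printed, held 2 Sox matches and 1 TATA box but no GC box, with a GC content of 54.3% and 4 CpG dinucleotides. A letter match is a description of the window and not evidence of binding.

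Genes that work with the 10 were described from lists of partners and paralogues, whose counts stand beside 25.0% lower and 29.7% higher over all genes tested. Among the core transcription factors of pluripotency 10 of 13 tested fell and 0 rose, against 25.0% and 29.7% of all genes tested, with Pou5f1, Nanog and Tfcp2l1 among those that fell. Sox2, at means of 0.534 CPM in control and 0.262 CPM in A485 libraries, did not pass (edgeR adjusted p = 0.33). Klf2 and Prdm14 did not pass either, with log2 fold changes of 0.85 and -0.21 (edgeR adjusted p of 0.21 and 0.89). Klf5, a factor of the early blastomere, fell from 60.9 ± 15.0 to 22.5 ± 4.48 CPM (SD, 4 libraries each; edgeR adjusted p = 0.00034). The list had a median log2 fold change of -1.43.

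Of 14 listed genes known to depend on Dppa2 and Dppa4 in stem cells, 11 were found and 6 tested, of which 5 rose and 0 fell, against 29.7% and 25.0% of all genes tested. Among those that rose, Nkx2-5, Zfp352, Tcstv1 and Tcstv3 had control means under 1 CPM. Genes that low in control can pass the filter through the A485 libraries, and could then hardly be called lower. The count is therefore no result about the list. Mael, the tested gene that was not called, had a log2 fold change of -0.92 ± 0.37 (SE; adjusted p = 0.056, edgeR) and is named after its value was seen. Nkx2-5, a cardiac homeobox gene with a bivalent promoter, rose from 0.357 ± 0.262 to 3.12 ± 0.778 CPM, and the cleavage-stage gene Zfp352 from 0.737 ± 0.960 to 21.2 ± 18.2 CPM (SD, 4 libraries each; edgeR adjusted p of 0.00067 and 0.0062). Tcstv3 rose from 0.770 ± 0.386 to 51.8 ± 59.1 CPM (edgeR adjusted p = 0.0037), a call lost in limma-voom, and Tcstv1 from 0.729 ± 0.694 to 15.6 ± 19.1 CPM (edgeR adjusted p = 0.0088). Both belong to a family of close copies, so their counts are uncertain. The 4 Zscan4 genes found and Duxf3 were under the filter on low counts, at a mean under 1 CPM in both groups.

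In the DNA methylation machinery around Dppa3, 2 of 9 fell and 2 rose, near the 25.0% and 29.7% of all genes tested. Tet2, a dioxygenase gene that oxidizes 5-methylcytosine, fell from 49.7 ± 4.91 to 3.50 ± 0.980 CPM, and Dnmt3b from 17.1 ± 2.50 to 8.02 ± 2.36 CPM (SD, 4 libraries each; edgeR adjusted p of 5.6e-06 and 0.0030). Dnmt1, the maintenance methyltransferase gene, rose from 5.87 ± 1.58 to 13.1 ± 3.70 CPM (SD, 4 libraries each; edgeR adjusted p = 0.0056). Tet3 rose at low level, from 0.525 to 1.52 CPM (edgeR adjusted p = 0.047), a call that changed in 10 of 18 alternatives. Uhrf1, which recruits DNMT1, had a log2 fold change of 0.22 ± 0.28 (SE; adjusted p = 0.53, edgeR).

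Dppa5a has relatives in the subcortical maternal complex, a protein assembly of the oocyte and early embryo. In that list 2 of 8 fell and 1 rose, where 25.0% and 29.7% of all genes tested did. Khdc3, a KH-domain gene, fell from 2056 ± 148 to 530 ± 295 CPM, and Padi6 from 25.8 ± 5.76 to 3.14 ± 1.31 CPM (SD, 4 libraries each; edgeR adjusted p of 0.00064 and 6.3e-05). Tle6 rose from 3.08 ± 1.34 to 16.4 ± 5.28 CPM (SD, 4 libraries each; edgeR adjusted p = 0.00036). Ooep, which starts 8704 bases from Dppa5a, had a log2 fold change of -0.51 ± 0.29 (SE; adjusted p = 0.16, edgeR).

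Around Lin28a and let-7, 4 of 15 fell and 3 rose, near the 25.0% and 29.7% of all genes tested. Under total-count scaling 5 rose, as did 4930 of all 12936 genes. Hmga2, a classical let-7 target, fell from 18.8 ± 1.83 to 3.04 ± 0.629 CPM, and Igf2bp1, an mRNA-binding let-7 target, from 129 ± 16.3 to 37.0 ± 11.9 CPM (SD, 4 libraries each; edgeR adjusted p of 1.5e-05 and 0.00012). Igf2bp2, Igf2bp3 and Mycn of the same list did not pass, with log2 fold changes of 0.01, 0.07 and -0.46 (edgeR adjusted p of 0.96, 0.79 and 0.60). Xpo5, which exports microRNA precursors, fell with a log2 fold change of -1.25 ± 0.20 (SE; adjusted p = 0.00055, edgeR). Dgcr8, a subunit of the Microprocessor, rose by 1.11 ± 0.19 on the log2 scale (SE; adjusted p = 0.00083, edgeR). Tut4, the uridylyltransferase gene that acts with LIN28A on let-7 precursors, rose from 2.23 ± 0.255 to 5.28 ± 1.02 CPM (SD, 4 libraries each; edgeR adjusted p = 0.0020). The paralogue Lin28b had a log2 fold change of -0.56 ± 0.34 and Trim71, another let-7 target, of -0.66 ± 0.27 (SE; adjusted p of 0.19 and 0.056, edgeR). MicroRNAs were not analysed here.

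In the list on alkaline phosphatases and phosphate handling 4 of 8 fell and 1 rose, against 25.0% and 29.7% of all genes tested, with 2 higher under total-count scaling. Alppl2, the embryonic alkaline phosphatase gene and a paralogue of Alpl, fell from 4586 ± 638 to 693 ± 496 CPM (SD, 4 libraries each; edgeR adjusted p = 0.0033). Slc20a1, a sodium-phosphate cotransporter gene, fell from 54.6 ± 3.80 to 13.2 ± 3.92 CPM, while its paralogue Slc20a2 rose from 1.81 ± 0.400 to 5.59 ± 0.752 CPM (SD, 4 libraries each; edgeR adjusted p of 5.3e-05 and 0.00053). Ank, a gene of pyrophosphate export, fell with a log2 fold change of -2.24 ± 0.26 (SE; adjusted p = 8.2e-05, edgeR).

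F-box proteins such as FBXO15 act in SCF ubiquitin ligases, and in that list 3 of 9 fell and 4 rose, against 25.0% and 29.7% of all genes tested, with 5 higher under total-count scaling. Btrc, a substrate receptor gene, fell from 384 ± 40.4 to 123 ± 66.3 CPM, and its paralogue Fbxw11 rose from 14.9 ± 3.29 to 26.9 ± 2.63 CPM (SD, 4 libraries each; edgeR adjusted p of 0.0020 and 0.0029). In the list of Morc paralogues and transposon silencing 2 of 10 fell and 3 rose, beside the same shares of all genes. Of those that rose, Morc4 and Piwil4 had control means of 0.0550 and 0 CPM. Genes that low in control can pass the filter through the A485 libraries, and could then hardly be called lower. The count is therefore no result about this list. Morc4 went from 0.0550 ± 0.110 to 4.82 ± 4.11 CPM, and Piwil2, a gene of the piRNA pathway, fell from 14.5 ± 4.41 to 5.19 ± 1.94 CPM (SD, 4 libraries each; edgeR adjusted p of 0.00091 and 0.0026). Among genes of bivalent chromatin around Utf1 4 of 7 fell and 1 rose, beside the same shares, with 3 lower under total-count scaling. Of the Polycomb subunit genes there, Eed fell from 180 ± 18.8 to 67.4 ± 7.46 CPM and Ezh2 from 37.5 ± 1.52 to 19.2 ± 1.79 CPM (SD, 4 libraries each; edgeR adjusted p of 3.2e-05 and 0.00024). Suz12, another such gene, did not pass, with a log2 fold change of 0.05 ± 0.21 (SE; adjusted p = 0.86, edgeR). Myc fell with a log2 fold change of -2.11 ± 0.34, and Kmt2b, a histone H3 lysine 4 methyltransferase gene, rose with one of 0.98 ± 0.26 (SE; adjusted p of 0.00055 and 0.0094, edgeR).

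The 3 nearest genes of the table on each side gave 48 distinct neighbours of the 10 genes, of which 40 were tested, 8 fell and 15 rose. Over all genes tested 25.0% fell and 29.7% rose. Among the neighbours that rose, Gsta2, Nectin3 and 6430531B16Rik had control means of 0.189, 0.262 and 0.156 CPM. Genes that low in control could hardly be called lower. Next to Lin28a, Dhdds fell from 49.5 ± 5.06 to 19.7 ± 2.26 CPM, while Hmgn2, a nucleosome-binding gene 35339 bases away, rose from 374 ± 16.0 to 829 ± 102 CPM (SD, 4 libraries each; edgeR adjusted p of 6.8e-05 and 7.2e-05). Crybg2, adjacent on the other side, fell with a log2 fold change of -0.72 ± 0.19 (SE; adjusted p = 0.0079, edgeR). That call was lost under total-count scaling. Beyond Crybg2, Cd52 fell and Ubxn11 rose (edgeR adjusted p of 0.017 and 0.019).

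Profiles most like those of the 10 genes were sought by Pearson correlation of log2 CPM over the 8 libraries, which share 2 groups, so a high value mostly repeats the group difference. Alpl was most like Tet2 (r = 0.997), the gene that fell to 7.05% of its control level. Utf1 was most like the nucleolar genes Rrp8 (r = 0.999) and Bms1 (r = 0.999). Dppa3 was most like Pdf and Psat1 (both r = 0.995), Dppa2 like Rab20 (r = 0.996), Dppa4 like Slc25a22 (r = 0.994), and Dppa5a like the ribosomal protein gene Rpl3 (r = 0.995). L1td1 was most like Arhgef1 (r = 0.986), Fbxo15 like Uqcr10 (r = 0.989), Lin28a like D5Ertd577e (r = 0.989) and Morc1 like Msrb1 (r = 0.915). Such likeness was common: 810 of 6847 genes had r of at least 0.95 with Utf1, 552 with Alpl and 398 with Dppa3, but 33 with L1td1. Within the set, r was 0.97 between Utf1 and Alpl, 0.97 between Dppa3 and Dppa4, 0.96 between Dppa3 and Fbxo15, and 0.64 between Fbxo15 and Alpl.

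In the authors' deposited table the log2 fold changes of A485 over control had the same signs for all 10 genes, from -3.98 for Alpl to 0.57 for L1td1. In the authors' deposited table the q-value was 0.049 for Fbxo15, 0.017 for Dppa2 and 0.51 for Morc1.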

How the data were processed

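The authors deposited 1 table with RSEM-type estimated counts and TPM per library, and their own log2 fold changes and q-values, per the file headers. Per the submitters' processing notes, the tools were RSEM 1.2.28, HISAT2 2.2.1 and DESeq2 1.40.2, listed with no role, on GRCm38.p6. Whether counting used strand is not stated in these sources. Estimated counts were rounded to whole numbers and tested with edgeR 4.0.16 (R 4.3.3; filterByExpr, TMM, robust quasi-likelihood) over 12936 genes of 8 libraries, with Benjamini-Hochberg adjustment and a threshold of 0.05. The standard error is the log2 fold change divided by the root of F. CPM use TMM library sizes, and TPM, with no TMM factor, give level order, shares, ratios between genes and marker levels, without a test. The fit was also run on counts simulated from the means and spread of the control libraries. Those do not cover the wider spread of the A485 libraries. Alternatives were limma-voom (limma 3.58.1), DESeq2 1.42.0, other scalings and filters, a replicate block and omission of libraries. Omitting A485 replicates 1 and 2, or 3 and 4, was chosen after seeing the data. The genes and lists were chosen with earlier results of these data known. All 10 genes are named, and stated paralogues and partners whatever their value. Up to 4 called genes per list by smallest p could be named. So could the 3 nearest genes on each side if called or adjacent, and the 3 most similar profiles. Not all of these were named, and a neighbour left out of the descriptions may have been called, as Cyb5a next to Fbxo15 was. Cdx2, Krt8, Sox2, Klf2, Prdm14, Suz12, Igf2bp2, Igf2bp3 and Mycn were named after their values were seen. Depth varied little, and counting error is large only for Morc1.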

Additional observations from a re-analysis of the deposited data

Results flagged for a closer look

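In 3 of 20 groups of 4 libraries tested (10 genes, control and A485), 1 library stood apart by the gap to its nearest neighbour divided by the range, which exceeded Dixon's critical value for groups of 4; chance gives about 1 in 20. Dppa3 in control libraries had a ratio of 0.941, with replicate 2 high at 7815 CPM. L1td1 in control libraries had a ratio of 0.858, with replicate 1 low at 12.1 CPM. Alpl in control libraries had a ratio of 0.837, with replicate 3 high at 49.8 CPM.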

How the results depend on the processing

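Over 189 combinations of gene and alternative no direction reversed, 168 kept their side of the threshold, 16 lost it and 5 gained it. Dppa3, Dppa4, Dppa5a, Utf1 and Alpl kept their call in 19 of 19 alternatives, and Morc1 was called in 0 of 18. Of the 10 genes, 5 to 8 fell and 0 to 1 rose when 1 library was left out. Without A485 replicates 3 and 4, 0 rose. Over all genes, leaving out 1 library gave 3509 to 4165 higher and 2784 to 3520 lower, and a filter at 5 CPM gave 2526 higher among 8194 tested. With the replicate number as a block, 8 of the 10 genes fell and 1 rose, and 3508 genes rose and 3163 fell among all tested. Deviations of same-numbered libraries correlated at 0.0151, 0.0533, 0.169 and 0.0931, so the numbers were not taken to pair the libraries. Between control and A485, every correlation within replicates 1 and 2, or within replicates 3 and 4, was positive, from 0.0151 to 0.179. Every correlation across those pairs was negative, from -0.156 to -0.0475. Deviations are from the group mean and sum to 0 within a group for each gene. Positive values within the pairs thus force negative ones across them on balance, which are no separate observation. What this split reflects was not tested. Not every library correlated best with its own number. Depth limits Morc1 alone among the 10 genes, at 4 to 31 counts per library.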
